A study of Mus musculus with 8 samples.

Results

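AP-1 is a dimer of a Jun and a Fos protein, and the RNA of its 7 subunit genes was followed here together with 3 other immediate early genes, Klf6, Egr1 and Myc, in livers and tumors of Fah-/- mice. These mice have no fumarylacetoacetate hydrolase, the enzyme that completes the breakdown of tyrosine. The 10 genes were taken from the 22504 genes of the deposited table. Of these, Klf6 was chosen by its measured values, because its expression had been seen to be higher in both later groups than in the earliest one. Its differences from that group are therefore given as a description with no test. The other 9 genes were taken as the Fos family (Fos, Fosb, Fosl1, Fosl2), the Jun family (Jun, Junb, Jund), Egr1 and Myc.

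All 8 mice were Fah-/- on the 129S4 background and had been kept on NTBC, a drug that blocks tyrosine breakdown upstream of the missing enzyme, at 7.5 mg/L in the drinking water. In the C 8w group (n = 3, liver), NTBC was lowered to 2.5% for 8 weeks, which is called moderate chronic liver injury (MCLI). The C 12w group (n = 2, labelled tumor) had 12 weeks of MCLI. The C 8w + A 4w group (n = 3, liver) had 8 weeks of MCLI and then 4 weeks without NTBC, which is called severe acute liver injury (SALI). No mouse on full NTBC and no wild-type mouse is among these samples, so no uninjured liver is compared here. Both comparisons that involve C 12w are also between tumor and liver tissue, and the part of the tissue in them cannot be told apart from that of the injury. Ages are not given in the labels. Replicates carry the numbers of the labels (2 and 3 for the tumors), or were numbered 1 to 3 where the labels give codes only.

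Immediate early genes are transcribed within minutes of a signal, from factors already present in the cell, and most of their RNAs and proteins are short-lived. Kinases of the ERK, JNK and p38 pathways act on SRF, the TCF factors and Jun itself, which switch on Fos, Jun and Egr1. Fos proteins cannot pair with each other and need a Jun partner, while Jun proteins can also pair among themselves or with factors of the Atf family. In the liver, Fos, Jun and Myc are known for their burst after partial hepatectomy, and Jun for its role in hepatocyte survival and in the start of liver tumors. Klf6 is a zinc finger factor induced in injured liver, Egr1 a zinc finger factor that answers growth factors and stress, and Myc a factor that drives ribosome production and growth.

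The sequences just upstream of 3 of the genes are shown because each holds at least one of the short elements known for AP-1 factors, Myc or the start of transcription. RefSeq promoter sequences (GRCm38.p6) were matched for 7 of the 10 genes, all but Fosl1, Egr1 and Myc. The 250 bases before the start of transcription were searched on both strands for the AP-1 element TGAGTCA, the cyclic AMP element TGACGTCA, the octamer TGACATCA, known from the Jun promoter as an element for dimers of Jun and Atf2, the E-box CACGTG, which Myc and Max bind, and the TATA element TATAAA. Matches are in capitals below, 5′ to 3′ on the strand of the gene. Klf6 is at chr13:5861239-5861488 (plus strand), Jun at chr4:95052223-95052472 (minus strand) and Fos at chr12:85473640-85473889 (plus strand).

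Klf6: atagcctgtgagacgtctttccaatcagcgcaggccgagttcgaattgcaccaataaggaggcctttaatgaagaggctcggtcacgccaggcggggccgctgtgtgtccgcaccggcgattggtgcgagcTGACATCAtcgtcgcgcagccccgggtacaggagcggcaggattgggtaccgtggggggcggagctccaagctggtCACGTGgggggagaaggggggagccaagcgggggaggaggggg
Jun: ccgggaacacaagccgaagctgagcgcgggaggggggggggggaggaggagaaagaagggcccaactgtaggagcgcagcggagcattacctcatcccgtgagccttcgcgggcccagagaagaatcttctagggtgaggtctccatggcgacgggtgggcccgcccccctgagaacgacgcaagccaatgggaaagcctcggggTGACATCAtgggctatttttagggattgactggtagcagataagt
Fos: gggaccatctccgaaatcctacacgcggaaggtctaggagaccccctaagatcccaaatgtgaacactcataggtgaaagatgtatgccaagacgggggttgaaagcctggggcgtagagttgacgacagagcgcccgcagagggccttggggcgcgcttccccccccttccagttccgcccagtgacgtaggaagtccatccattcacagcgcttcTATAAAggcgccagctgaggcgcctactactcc

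The octamer TGACATCA occurred in 2 of the 7 promoters, those of Jun and Klf6, and in 2.93% of all 32851 promoters of this length. It began 45 bases before the start of Jun and 119 bases before the start of Klf6. Klf6 also held an E-box, beginning 43 bases before its start, as did 6.02% of all promoters. The Fos promoter held TATAAA, beginning 33 bases before its start, as did 12.4% of all promoters. TGAGTCA (4.46% of all promoters) and TGACGTCA (1.55%) were found in none of the 7 within these 250 bases. No binding was measured, and a match is a description of the letters only.

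Expression is given as deposited, in FPKM (fragments assigned to a gene, divided by its length and by the mapped fragments of the library), which is per length and so can be set side by side between genes. The summed FPKM per sample lay between 324735 and 399342, and FPKM keeps no read counts, so the depth is unknown. Some genes that every hepatocyte uses were near 0 throughout C 8w and the tumors, among them Gapdh at no more than 0.247 FPKM against at least 68.2 in C 8w + A 4w, Ppia at no more than 0.533 against at least 761, and Alb, listed at 0 against at least 12946. The sample codes of the labels also run in one series for C 8w and C 12w and in another for C 8w + A 4w, so code series and group cannot be told apart. Hnf4a, a defining hepatocyte factor, lay between 81.2 and 104 FPKM in all 8 samples. The labels' extraction text speaks of retinas, but the retina genes Rcvrn, Pde6b and Opn1sw were at no more than 0.0162 FPKM in any sample (Gnat1, also of the retina, was between 1.95 and 3.57 and was called in no comparison).

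Groups were compared as log2(FPKM + 1) with limma over the 10244 genes that reached an FPKM of 1 in 4 or more of the 8 samples, and a gene is called where its Benjamini-Hochberg adjusted p over all these genes is under 0.05. Fold changes on this scale understate the change of low genes. Of the 10 genes, 9 passed the floor. Fosb did not, and Fosl1 passed with exactly 4 samples, the 3 of C 8w + A 4w and replicate 2 of C 12w, so its passing already required it to be high there and its call is no independent support. Fos passed with 5 samples, both tumors among them, and with 3 without the tumors, so the same limit holds for its call in C 12w. The log2 fold change of the median gene was 0.12 in both comparisons with C 8w and 0.01 between the later groups, and every called difference of the 10 genes was larger in size than that.

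Each of the 10 genes had a higher mean FPKM in both later groups than in C 8w, a pattern for which Klf6 was chosen. Fosb did so with overlapping groups. The share of all genes with this pattern was not counted, and the median gene was itself 0.12 higher on the log2 scale in both comparisons. For C 8w + A 4w against C 8w, 6 of the 8 tested genes other than Klf6 were called, all higher (Fosl1, Fosl2, Jun, Junb, Jund and Myc), where 25.3% of all genes tested were called higher and 14.1% lower. In C 12w against C 8w, 5 of the 8 were called, all higher (Fos, Jun, Junb, Jund and Myc), where 12.2% of all genes were called higher and 6.98% lower. Fosl1 in the first comparison and Fos in the second passed the floor only with the samples of the later group, so neither call is independent support. These 2 comparisons share the C 8w samples. Between the later groups 3 of 9 were called, Fosl1 and Fosl2 higher and Junb lower in C 8w + A 4w, where 17.4% of all genes were called higher and 15.4% lower. When samples were scaled by median ratios, the share of higher genes among all genes called moved from 64.2% to 49.4% in C 8w + A 4w against C 8w and from 63.6% to 47.4% in C 12w against C 8w. Of the 10 genes, the calls of Jund for C 8w + A 4w against C 8w (limma adjusted p = 0.0760) and of Fos for C 12w against C 8w (limma adjusted p = 0.0583) were then lost. The summed FPKM of the 10 genes was 49.7, 44.0 and 54.6 in C 8w, 147 and 131 in the C 12w tumors, and 124, 95.6 and 117 in C 8w + A 4w. In RNA of whole tissue, fewer cells of a type and less RNA per cell cannot be told apart.

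**Figure D1:**
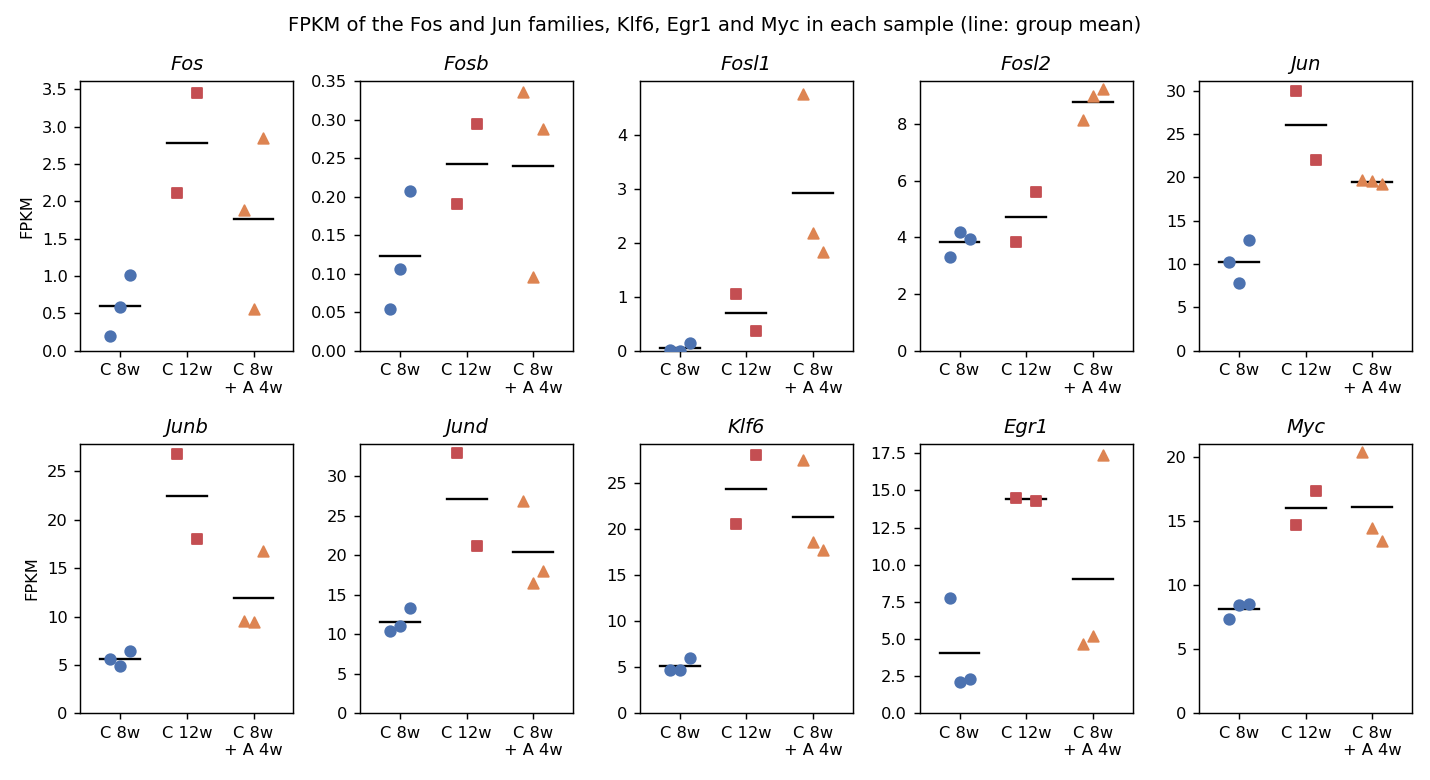
FPKM of each of the 10 genes (vertical axes, linear, from 0, one scale per gene) in the 3 groups (horizontal axes). Each point is a mouse and each line a group mean. All points of Klf6, Jun, Jund, Junb and Myc in C 12w and C 8w + A 4w lie above those of C 8w, while Fosl2 is separate only in C 8w + A 4w.

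Fosl2, which encodes Fra-2, was the most abundant Fos family RNA in every sample. Its FPKM was 3.31, 4.20 and 3.94 in C 8w, 3.83 and 5.61 in the C 12w tumors, and 8.14, 9.01 and 9.22 in C 8w + A 4w. The C 8w + A 4w samples lay above all others, and C 12w overlapped with C 8w. Fosl2 rose in C 8w + A 4w by 1.03 on the log2 scale against C 8w (SE 0.14, limma adjusted p = 0.000855) and was 0.79 above C 12w (SE 0.16, limma adjusted p = 0.00621). Both calls held under all 18 alternative settings, but none of these separates the code series from the group. Against C 8w its log2 difference in C 12w was 0.23 (95% interval -0.12 to 0.59, limma adjusted p = 0.303). Without C 12w replicate 2 that difference was 0.46 (limma adjusted p = 0.0435).

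Fosl1, which encodes Fra-1, was close to 0 in C 8w, at 0.0170, 0 and 0.135 FPKM. In C 12w it was 1.05 and 0.361 FPKM, and in C 8w + A 4w it was 4.76, 2.18 and 1.82 FPKM. The 3 groups did not overlap, with C 8w + A 4w highest and C 12w between. On the log2 scale C 8w + A 4w stood 1.83 above C 8w (SE 0.27, limma adjusted p = 0.00120) and 1.16 above C 12w (SE 0.30, limma adjusted p = 0.0193). The latter had an adjusted p of 0.0906 in limma without C 12w replicate 3 and 0.0639 with only these 2 groups in the fit. C 12w was 0.67 above C 8w (SE 0.30, limma adjusted p = 0.142), and with a pseudocount of 0.1 the difference was 2.38 (limma adjusted p = 0.0266). Of the 50-base windows of the Fosl1 transcripts 52.6% also occur in Ccdc85b, which overlaps it on the opposite strand. The library kit named in the labels does not mark strand. Ccdc85b was 3.60, 4.75 and 5.57 FPKM in C 8w, 4.67 and 3.73 in the C 12w tumors, and 8.78, 6.20 and 6.04 in C 8w + A 4w, also highest in the last group but without the near absence seen for Fosl1 in C 8w. Its part in the Fosl1 values was not tested.

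Fos, the founding member of the family, was low and varied between mice. Its FPKM was 0.204, 0.582 and 1.01 in C 8w, 2.12 and 3.45 in the C 12w tumors, and 1.88, 0.561 and 2.85 in C 8w + A 4w. Both tumors lay above all C 8w samples, whereas replicate 2 of C 8w + A 4w lay within the C 8w range. C 12w was 1.25 above C 8w on the log2 scale (SE 0.37, limma adjusted p = 0.0482), a call just past the threshold. It was lost in 12 of 19 alternatives (adjusted p from 0.0203 to 0.178 in limma), among them leaving out C 8w replicate 1, 2 or 3 (0.146, 0.106 and 0.0753), C 12w replicate 3 (0.178) or C 8w + A 4w replicate 1 (0.0643). In C 8w + A 4w against C 8w the difference was 0.73 (SE 0.33, limma adjusted p = 0.114), and without replicate 2 of C 8w + A 4w it was 1.09 (limma adjusted p = 0.0166). That sample had the highest macrophage markers, whose 7 genes summed to 389 FPKM against 120 and 122 in the other C 8w + A 4w samples and 135 to 184 elsewhere. The part of these cells in the low Fos value was not tested.

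Fosb, the fourth Fos gene, was under 0.4 FPKM in every sample, with 0.0544 to 0.208 in C 8w, 0.191 and 0.294 in the C 12w tumors, and 0.0957 to 0.336 in C 8w + A 4w. The groups overlapped. Tested without the floor among 17762 genes, its log2 differences were 0.14 (C 8w + A 4w against C 8w, limma adjusted p = 0.299), 0.15 (C 12w against C 8w, limma adjusted p = 0.373) and -0.0068 (C 8w + A 4w against C 12w, limma adjusted p = 0.984).

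Jun, the transforming subunit that gave the family its name, was 10.3, 7.86 and 12.7 FPKM in C 8w, 30.0 and 22.0 in the C 12w tumors, and 19.7, 19.6 and 19.2 in C 8w + A 4w. The groups did not overlap in any pair, with the tumors highest. Jun rose by 1.27 on the log2 scale in C 12w (SE 0.20, limma adjusted p = 0.00555) and by 0.88 in C 8w + A 4w (SE 0.18, limma adjusted p = 0.00515). Between the later groups the difference was -0.38 (C 8w + A 4w minus C 12w, 95% interval -0.83 to 0.07, limma adjusted p = 0.168). With samples scaled to the same summed FPKM it was -0.56 (limma adjusted p = 0.0422). The 3 values of C 8w + A 4w had an SD of only 0.260 FPKM, against 2.44 in C 8w.

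Junb, a Jun protein that often restrains growth, was 5.60, 4.93 and 6.46 FPKM in C 8w, 26.8 and 18.0 in the C 12w tumors, and 9.52, 9.45 and 16.8 in C 8w + A 4w. Again no pair of groups overlapped, and the tumors were highest. It rose in C 12w by 1.79 on the log2 scale against C 8w (SE 0.26, limma adjusted p = 0.00456). The rise in C 8w + A 4w was 0.92 (SE 0.23, limma adjusted p = 0.0151), and its adjusted p was 0.0530 and 0.0569 in limma without C 8w replicate 1 or 2. Junb was 0.88 lower in C 8w + A 4w than in the tumors (SE 0.26, limma adjusted p = 0.0325). That call was lost without C 8w replicate 1 (0.0552) or 2 (0.0503), C 12w replicate 2 (0.136), or C 8w + A 4w replicate 1 (0.0907) or 2 (0.0821), without the floor (0.0664) and with only these 2 groups in the fit (0.0864). Of its windows 5.76% are shared with Prdx2 on the opposite strand, which was 39.2 to 48.9 FPKM in C 8w, 41.7 and 49.2 in the C 12w tumors, and 55.5 to 60.8 in C 8w + A 4w.

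Jund, the Jun gene usually expressed in resting cells, was 10.4, 11.1 and 13.3 FPKM in C 8w, 33.0 and 21.2 in the C 12w tumors, and 26.8, 16.5 and 18.0 in C 8w + A 4w. Both later groups lay above C 8w and overlapped with each other. C 12w was 1.13 above C 8w on the log2 scale (SE 0.24, limma adjusted p = 0.0173), with 0.0658 and 0.0543 without C 8w replicate 1 or 2. C 8w + A 4w was 0.75 above C 8w (SE 0.22, limma adjusted p = 0.0259). The latter was lost in 6 of 17 alternatives, which were leaving out C 8w replicate 1 (0.0953) or 2 (0.0776) or C 8w + A 4w replicate 1 (0.0741), no floor (0.0560), median-ratio scaling (0.61, limma adjusted p = 0.0760) and quantile normalization (0.59, limma adjusted p = 0.0722). Of the windows of Jund 48.3% lie in the antisense gene Gm11175, which was at no more than 0.524 FPKM in any sample. Between the later groups the difference was -0.39 (95% interval -0.94 to 0.17, limma adjusted p = 0.254).

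The make-up of the 2 families varied between samples. In C 8w, Fosl2 made up 92.3%, 85.9% and 74.5% of the summed Fos family FPKM, in C 12w 53.3% and 57.7%, and in C 8w + A 4w 53.8%, 76.1% and 65.0%. The rest was mostly Fos in the tumors (29.5% and 35.5%, against 14.6% and 3.71% of Fosl1) and more Fosl1 in 2 of the 3 C 8w + A 4w samples (31.5% and 18.4%, against 12.5% and 4.74% of Fos). In the third of these, Fos was 20.1% and Fosl1 12.8%. Jun family RNA exceeded Fos family RNA in every sample, by 7.32, 4.88 and 6.13 times in C 8w, 12.5 and 6.31 times in C 12w, and 3.70, 3.85 and 3.81 times in C 8w + A 4w. This ratio was lower in each C 8w + A 4w sample than in any other sample. Fosl1 counts in it, at 31.5%, 18.4% and 12.8% of the Fos family FPKM in C 8w + A 4w. Since 52.6% of its windows occur in Ccdc85b, also highest there, the separation rests in part on a gene with shared sequence. Within the Jun family the ratio of Junb to Jun was 0.892 and 0.819 in the tumors, 0.507 to 0.627 in C 8w, and 0.484, 0.482 and 0.876 in C 8w + A 4w. These shares are descriptions, with no test.

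**Figure D2:**
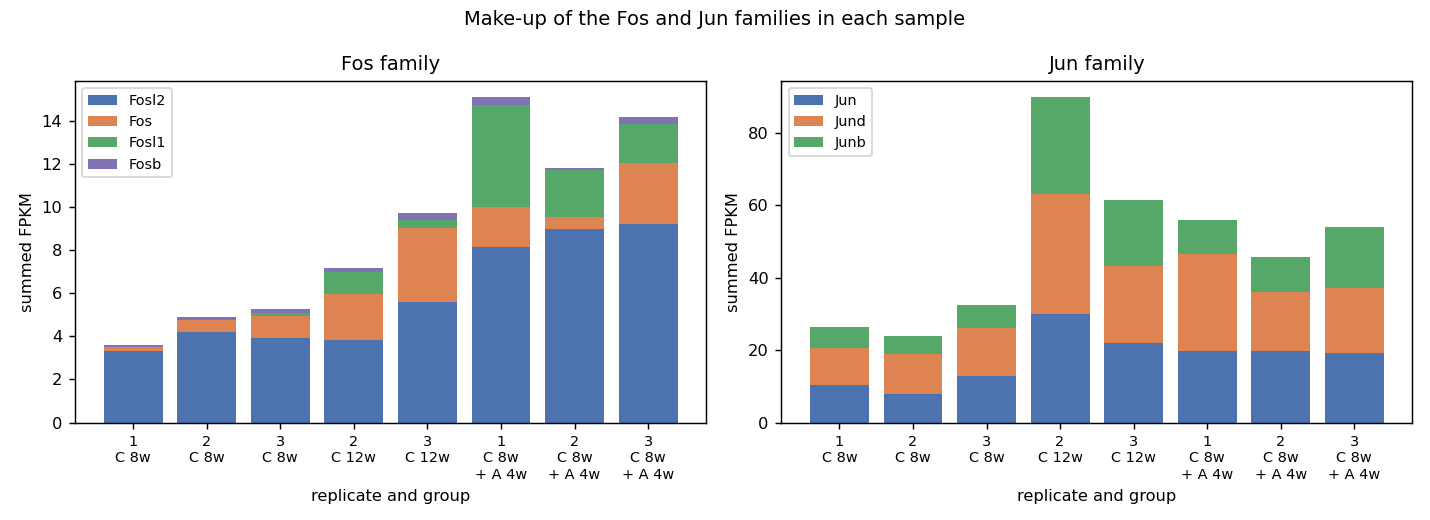
Summed FPKM (vertical axes, linear, from 0) of the Fos family (left) and the Jun family (right) in each sample, with colours for the genes and replicate number and group below. Fos family bars reach 15.1 in C 8w + A 4w and at most 5.30 in C 8w, while the highest Jun family bar, 89.7, is C 12w replicate 2.

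Klf6 was 4.74, 4.70 and 6.01 FPKM in C 8w, 20.5 and 28.1 in the C 12w tumors, and 27.5, 18.5 and 17.7 in C 8w + A 4w. Both later groups lay far above C 8w and overlapped with each other. The ratio of the mean FPKM to that of C 8w was 4.72 for C 12w and 4.12 for C 8w + A 4w, and on the log2 scale the differences were 2.03 (SE 0.22) and 1.83 (SE 0.19). They are the values on which the gene was chosen, and they stayed between 1.64 and 2.25 under all alternatives. What the choice did not use is the difference between the later groups, which was -0.20 (C 8w + A 4w minus C 12w, 95% interval -0.69 to 0.30, limma adjusted p = 0.518). Without C 12w replicate 3 it was 0.022.

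The 3 genes whose pattern over the 8 samples was most like that of Klf6, by the Euclidean distance of centred log2(FPKM + 1) among 10244 genes, were Rhoc (0.478), Cd9 (0.672) and Ddr1 (0.739). Rhoc, a small GTPase of the cytoskeleton, was 7.68, 6.02 and 7.75 FPKM in C 8w, 27.6 and 27.8 in the C 12w tumors, and 37.6, 24.1 and 25.5 in C 8w + A 4w. Cd9, a tetraspanin of the cell surface, was 23.6 to 35.4 FPKM in C 8w and 119 to 137 in the later groups, with 14.4% of its windows shared with other genes. Ddr1, a collagen receptor kinase, was 1.75 to 2.97 FPKM in C 8w and 6.43 to 10.1 in the later groups. Among the other genes of the 10, Myc (rank 98 of the 10244 genes) and Jun (107) were nearest to Klf6, followed by Jund (172), Junb (232), Fos (300), Fosl1 (439), Fosl2 (1089) and Egr1 (3243).

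Egr1 was 7.74, 2.11 and 2.32 FPKM in C 8w, 14.5 and 14.3 in the C 12w tumors, and 4.64, 5.19 and 17.4 in C 8w + A 4w. Both tumors lay above C 8w and were nearly equal, while C 8w replicate 1 and C 8w + A 4w replicate 3 each stood well above the rest of their group. The difference between C 12w and C 8w was 1.78 on the log2 scale (SE 0.57) and did not pass the test (limma adjusted p = 0.0597). It passed in 5 of 20 alternatives (adjusted p from 0.00588 to 0.160 in limma), among them leaving out C 8w replicate 1 (0.0443) or C 8w + A 4w replicate 3 (0.0345). In C 8w + A 4w against C 8w the difference was 0.94 (95% interval -0.22 to 2.11, limma adjusted p = 0.171), and between the later groups it was -0.84 (95% interval -2.14 to 0.46, limma adjusted p = 0.294).

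Myc was 7.35, 8.47 and 8.54 FPKM in C 8w, 14.7 and 17.4 in the C 12w tumors, and 20.4, 14.5 and 13.4 in C 8w + A 4w. Both later groups lay above C 8w without overlap. It rose by 0.90 on the log2 scale in C 12w (SE 0.18, limma adjusted p = 0.0138) and by 0.89 in C 8w + A 4w (SE 0.16, limma adjusted p = 0.00337). The former had an adjusted p of 0.0576 in limma without C 8w replicate 1, and the latter held under all 18 alternatives. The later groups overlapped and differed by -0.01 (95% interval -0.42 to 0.40, limma adjusted p = 0.970).

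**Figure D3:**
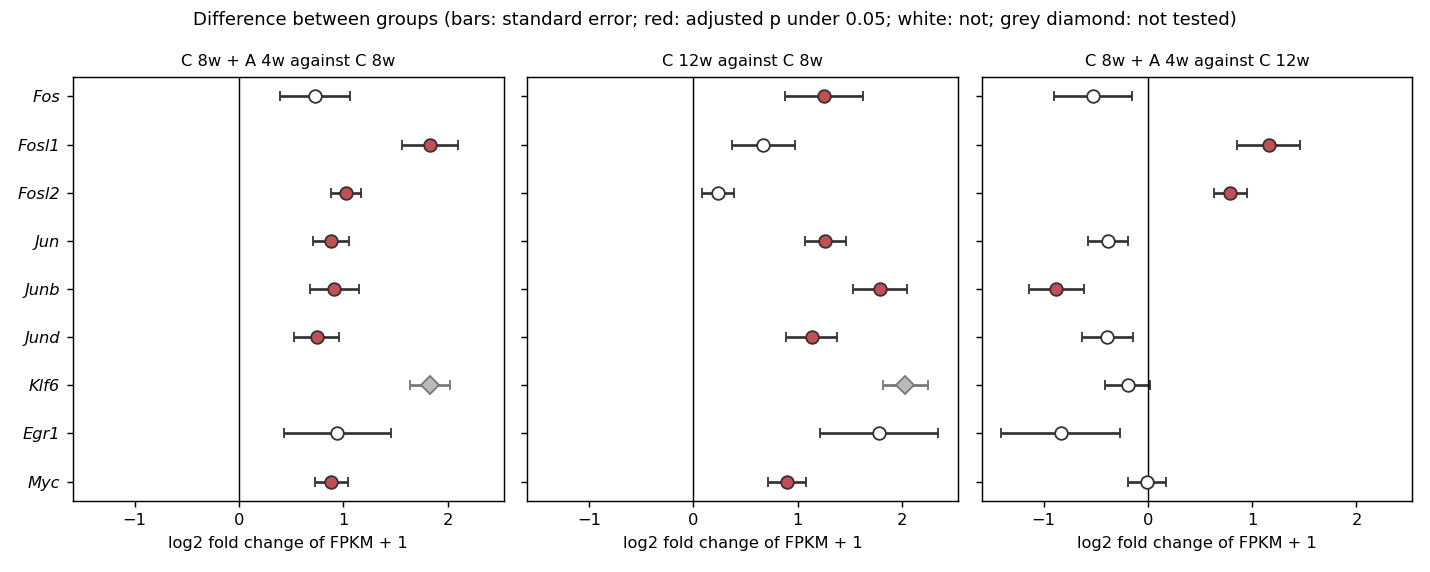
Log2 fold change of FPKM + 1 (horizontal axes) with its standard error (bars) for the 9 genes that passed the floor, in the 3 comparisons (panels, first group minus second). Red circles passed an adjusted p of 0.05, white circles did not, and grey diamonds mark Klf6 where it was not tested. Fosl1 and Fosl2 lie to the right and Junb to the left in the third panel.

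The factors that pair with AP-1 subunits or share their leucine zipper were mixed. Of 12 listed, 9 were tested, and 5 were called higher and 2 lower for C 8w + A 4w against C 8w (median log2 fold change 0.45, against 0.12 over all genes), 2 higher and 1 lower in C 12w against C 8w (0.31), and 3 higher and 0 lower for C 8w + A 4w against C 12w (0.09). These were 55.6% higher and 22.2% lower in the first comparison (25.3% and 14.1% of all genes), 22.2% and 11.1% in the second (12.2% and 6.98% of all genes), and 33.3% and 0% in the third (17.4% and 15.4% of all genes). Without any one C 8w sample limma called 0 of these 9 in C 12w against C 8w, and without C 8w replicate 1 it called 3 higher and 1 lower in the first comparison. In the second it called 3 higher and 1 lower without C 12w replicate 2, 1 and 2 without C 12w replicate 3 or C 8w + A 4w replicate 2, and 2 and 2 under median-ratio scaling, and in the third 3 and 2 without C 12w replicate 2. Leaving out single samples also moved the shares of all genes called, from 15.04% to 32.1% higher and 9.06% to 18.5% lower in the first comparison, from 3.72% to 25% and 2.67% to 11.1% in the second, and from 13.7% to 18.2% and 10.7% to 22.9% in the third, and the list counts with samples left out are to be read against these. Atf3, a stress factor that pairs with Jun and stands in 2 of the lists, was 2.20, 2.47 and 2.54 FPKM in C 8w, 35.7 and 8.91 in the C 12w tumors, and 35.7, 11.2 and 8.52 in C 8w + A 4w. Every later sample lay above C 8w, with one far above the rest in each later group. Its rise was 2.25 in C 8w + A 4w (SE 0.56, limma adjusted p = 0.0142) and 2.49 in C 12w (SE 0.63, limma adjusted p = 0.0298). The first was lost without C 8w replicate 1 (0.0519) and the second without any of the C 8w samples or C 12w replicate 2, with an adjusted p of up to 0.0897 in limma. Maff, a small Maf protein without an activation domain, was 4.14 to 4.995 FPKM in C 8w, 6.31 and 5.24 in the C 12w tumors, and 12.7 to 14.2 in C 8w + A 4w, and rose by 1.35 against C 8w (SE 0.11, limma adjusted p = 5.54e-05). Mafk, a close relative, rose by 1.04 (SE 0.13, limma adjusted p = 0.000648). Of 7 macrophage markers limma called 0 in each comparison (0 with an unadjusted p under 0.05 in C 8w + A 4w against C 8w, 1 in C 12w against C 8w and 2 between the later groups), but 3 were called lower in C 8w + A 4w against C 8w when its replicate 2 was left out. Leaving out single samples also gave some calls in each of the other comparisons.

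Among 32 other immediate early genes, 26 were tested. In C 8w + A 4w against C 8w, 10 were called higher and 3 lower (median 0.60), in C 12w against C 8w 5 higher and 2 lower (0.43), and between the later groups 5 higher and 3 lower (0.02). As shares, 38.5% were higher and 11.5% lower against 25.3% and 14.1% of all genes, then 19.2% and 7.69% against 12.2% and 6.98%, and last 19.2% and 11.5% against 17.4% and 15.4%, near the shares of all genes. The count of higher genes in the first comparison was 5 without C 8w replicate 1, and that in the second was 2, 3 and 2 without C 8w replicate 1, 2 or 3. Between the later groups it was 3 without C 8w + A 4w replicate 1 or 3, and 5 were lower without C 12w replicate 3. Gadd45a, a DNA damage and stress gene, rose by 1.96 in C 8w + A 4w (SE 0.43, limma adjusted p = 0.00771), from 3.62 to 5.10 FPKM in C 8w to 42.4, 9.86 and 15.5 FPKM. Klf4, a zinc finger factor that also stands in the Klf list, rose by 2.09 there (SE 0.28, limma adjusted p = 0.000780), from 0.597 to 0.984 FPKM to 4.64 to 8.08 FPKM, and passed the floor only through the later groups, in which it was high. Ier3 was 0.829 to 1.94 FPKM in C 8w and 5.02 and 7.45 in C 12w, a rise of 1.68 (SE 0.28, limma adjusted p = 0.00757). Other genes of the list went the opposite way. Gadd45b, a relative of Gadd45a, was 16.7 to 19.9 FPKM in C 8w, 2.65 and 5.55 in the C 12w tumors, and 10.02 to 12.5 in C 8w + A 4w. It fell by 1.96 in C 12w (SE 0.23, limma adjusted p = 0.00197) and was 1.36 higher in C 8w + A 4w relative to the tumors (SE 0.23, limma adjusted p = 0.00294). Errfi1, an inhibitor of the EGF receptor, fell by 1.13 in C 8w + A 4w (SE 0.16, limma adjusted p = 0.000859), from 179 to 253 FPKM to 88.3 to 102 FPKM.

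**Figure D4:**
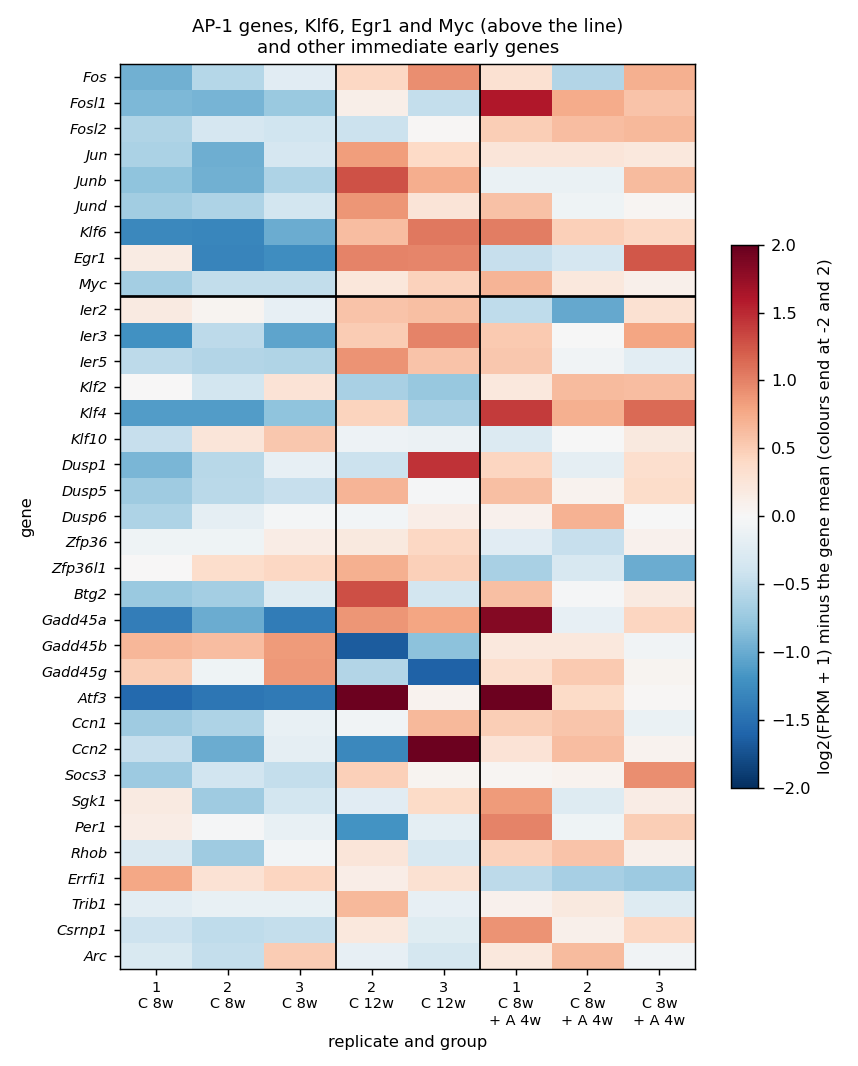
Log2(FPKM + 1) minus the mean of each gene over 8 samples (colours, red higher and blue lower, ending at -2 and 2) for the 9 genes that passed the floor (above the line) and 26 other immediate early genes (below), with samples in columns by group. Above the line C 8w is blue except for Egr1 in replicate 1, while Gadd45b and Errfi1 are red in all 3 C 8w samples.

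The genes that act upstream were counted in the same way. Of 24 kinases and SRF or TCF factors 22 were tested, and 3 were called higher and 0 lower for C 8w + A 4w against C 8w (median 0.21), 1 higher and 0 lower in C 12w against C 8w (0.16), and 2 higher and 1 lower between the later groups (0.05). The shares were 13.6% higher and 0% lower (25.3% and 14.1% of all genes), 4.55% and 0% (12.2% and 6.98%), and 9.09% and 4.55% (17.4% and 15.4%). Under median-ratio scaling 2 were also called lower in the first comparison and 1 in the second. Leaving out C 12w replicate 2 gave 7 higher in each of the first 2 comparisons (31.8%, where that fit called 32.1% and 25% of all genes higher) and 5 lower in the third (22.7%, against 22.9% of all genes), and leaving out C 8w replicate 1 gave 1 and 0 higher in the first 2. Elk4, a TCF factor that works with SRF on Fos and Egr1, rose by 0.89 in C 8w + A 4w (SE 0.11, limma adjusted p = 0.000539), from 4.48 to 4.82 FPKM in C 8w to 8.83 to 10.5 FPKM. Srf itself was between 2.55 and 3.09 FPKM in 7 samples and 5.08 in C 12w replicate 3. Mapk8, which encodes the Jun kinase JNK1, was 2.90 to 3.24 FPKM in C 8w and 2.34 to 2.87 in C 8w + A 4w, and lay 0.58 lower there than in C 12w (3.91 and 4.76 FPKM, SE 0.12, limma adjusted p = 0.00866). RNA of a kinase says nothing of its activity, which was not measured.

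Of 16 known AP-1 target genes only 8 passed the floor. In C 8w + A 4w against C 8w, 2 were called higher and 0 lower (median 0.68), in C 12w against C 8w 4 higher and 0 lower (1.06), and between the later groups 0 higher and 1 lower (-0.07). The 2 of 8 in the first comparison are 25%, near the share of all genes (25.3% higher, with 14.1% lower), the 4 of 8 in the second are 50% (12.2% and 6.98% of all genes), and the third had 0% higher and 12.5% lower (17.4% and 15.4% of all genes). The count in the second comparison was 2 without C 8w replicate 1 or 2, and the number lower in the third was 2 (25%) without C 12w replicate 2 or C 8w + A 4w replicate 2, where 22.9% and 15.7% of all genes were lower. Plaur, the urokinase receptor, was 0.156 to 0.318 FPKM in C 8w, 5.11 and 7.02 in the C 12w tumors, and 10.7, 4.89 and 6.79 in C 8w + A 4w. It rose by 2.73 in C 8w + A 4w (SE 0.23, limma adjusted p = 6.35e-05) and by 2.51 in C 12w (SE 0.26, limma adjusted p = 0.00145). Like Fosl1, Plaur passed the floor only through the groups in which it was high. Sprr1a, a protein of the cornified envelope of skin, was 1.70, 2.34 and 7.08 FPKM in C 8w, 127 and 20.2 in the C 12w tumors, and 168, 43.5 and 46.1 in C 8w + A 4w, and rose by 4.08 in C 8w + A 4w (SE 0.76, limma adjusted p = 0.00371). The metalloprotease Mmp14 was 0.74 lower in C 8w + A 4w than in the tumors (SE 0.15, limma adjusted p = 0.00688).

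The genes around Myc fell into several patterns. Of 10 Myc partners and relatives 8 were tested, with 1 higher and 1 lower against C 8w in each later group (median 0.22 for C 8w + A 4w, 0.09 for C 12w) and 2 higher and 0 lower between the later groups (0.12). Each count of 1 is 12.5%, beside 25.3% higher and 14.1% lower over all genes for the first comparison, 12.2% and 6.98% for the second, and 2 of 8 is 25%, where 17.4% of all genes were higher and 15.4% lower between the later groups. Under median-ratio scaling the count in C 8w + A 4w against C 8w was 0 higher and 2 lower, and it was 3 higher and 1 lower without C 12w replicate 2, 4 and 1 without C 12w replicate 3, 0 and 0 without C 8w replicate 1 or 2 or C 8w + A 4w replicate 2, and 1 and 0 without C 8w replicate 3 or C 8w + A 4w replicate 3. The count in C 12w was 0 higher and 1 lower without C 8w replicate 1 or 3 and 3 and 2 without C 12w replicate 2, and the number higher between the later groups was 1 without any one C 8w sample or C 8w + A 4w replicate 1 or 2. Mycl, a relative of Myc whose FPKM exceeded that of Myc in each C 8w sample, was 9.51, 8.61 and 9.90 FPKM in C 8w, 3.34 and 1.11 in the C 12w tumors, and 6.35, 4.72 and 3.59 in C 8w + A 4w. It fell by 1.77 in C 12w (SE 0.30, limma adjusted p = 0.00736), opposite to Myc. Max, the obligate partner of Myc, was 9.28 to 10.6 FPKM in C 8w, 9.25 and 6.77 in the C 12w tumors and 12.0 to 13.3 in C 8w + A 4w, 0.62 higher in the last than in C 12w (SE 0.14, limma adjusted p = 0.0107).

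Known Myc targets of ribosome assembly and growth were all tested (22 of 22). Of these, 15 were called higher and 1 lower for C 8w + A 4w against C 8w (median 0.65), 6 higher and 0 lower in C 12w against C 8w (0.38), and 6 higher and 1 lower between the later groups (0.20). That is 68.2% higher and 4.55% lower (25.3% and 14.1% of all genes), 27.3% and 0% (12.2% and 6.98%), and 27.3% and 4.55% (17.4% and 15.4%). Leaving out single samples moved the count of higher genes between 12 and 18 in the first comparison and between 1 and 9 in the second, where it was 1, 3 and 1 without C 8w replicate 1, 2 or 3 and 2 without C 12w replicate 3. Under quantile normalization it was 1 in the second comparison (4.55%, against 8.72% of all genes higher). Between the later groups it was 3 without C 8w + A 4w replicate 1. Ncl, which encodes nucleolin, was 12.7 to 14.3 FPKM in C 8w, 23.4 and 23.9 in the C 12w tumors, and 21.3 to 24.9 in C 8w + A 4w, and rose by 0.77 in C 12w (SE 0.12, limma adjusted p = 0.00496). Odc1, the first enzyme of polyamine synthesis, rose by 1.87 in C 8w + A 4w (SE 0.23, limma adjusted p = 0.000441), from 9.80 to 11.1 FPKM to 36.3 to 45.5 FPKM, and 24.3% of its windows occur in other genes. Fbl, which encodes the nucleolar methyltransferase fibrillarin, was 2.24 to 2.90 FPKM throughout C 8w and the tumors, and 30.96 to 34.4 in C 8w + A 4w, with 19.7% shared windows. That split runs along the code series of the samples, as does that of Gapdh and Alb. Fosl2, Maff, Mafk, Elk4 and Odc1 were also higher in every C 8w + A 4w sample than in all others. For all of these genes the part of the code series cannot be told apart from that of the treatment. Bop1, a ribosome assembly factor, fell by 0.39 in C 8w + A 4w against C 8w (SE 0.12, limma adjusted p = 0.0317), a call lost without any one of the C 8w samples or C 8w + A 4w replicate 1 or 3 (adjusted p up to 0.109 in limma).

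The rest of the Klf family was mixed. Of 16 other Klf genes 10 were tested, with 3 called higher and 1 lower for C 8w + A 4w against C 8w (median 0.10), 1 higher and 1 lower in C 12w against C 8w (0.05), and 3 higher and 1 lower between the later groups (0.00). With 10 genes these are 30% higher and 10% lower against 25.3% and 14.1% of all genes, 10% and 10% against 12.2% and 6.98%, and 30% and 10% against 17.4% and 15.4%. Under median-ratio scaling the middle count was 0 higher and 2 lower, and its higher genes numbered 0 without C 8w replicate 2 or 3, 3 without C 12w replicate 2 and 2 without C 12w replicate 3 or C 8w + A 4w replicate 1. Its lower genes numbered 0 without C 8w replicate 1 or 3 and 2 without C 8w + A 4w replicate 1. Without C 12w replicate 2 or 3 the first count was 5 higher and 2 lower. The third was 3 higher and 2 lower without C 12w replicate 2 and 1 and 1 without C 12w replicate 3, and its higher genes numbered 2 without C 8w + A 4w replicate 1 or 3. Klf15, a metabolic factor of the fasted liver, fell by 0.79 in C 8w + A 4w (SE 0.15, limma adjusted p = 0.00415), from 46.9 to 49.9 FPKM in C 8w to 33.8, 22.7 and 27.8 FPKM. Klf2, a factor of endothelium and immune cells, was 1.19 higher in C 8w + A 4w relative to the tumors (SE 0.20, limma adjusted p = 0.00319). Of the 5 listed Egr relatives and corepressors only Nab1 and Nab2, which bind and restrain Egr1, passed the floor. Nab1 rose by 0.84 in C 12w (SE 0.15, limma adjusted p = 0.00921) and by 0.60 in C 8w + A 4w (SE 0.13, limma adjusted p = 0.00859). Nab2 was 3.74 and 5.61 FPKM in C 12w against 1.28 to 1.99 in C 8w + A 4w, 1.10 lower in the latter (SE 0.18, limma adjusted p = 0.00268), with 34.9% of its windows in other genes.

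**Figure D5:**
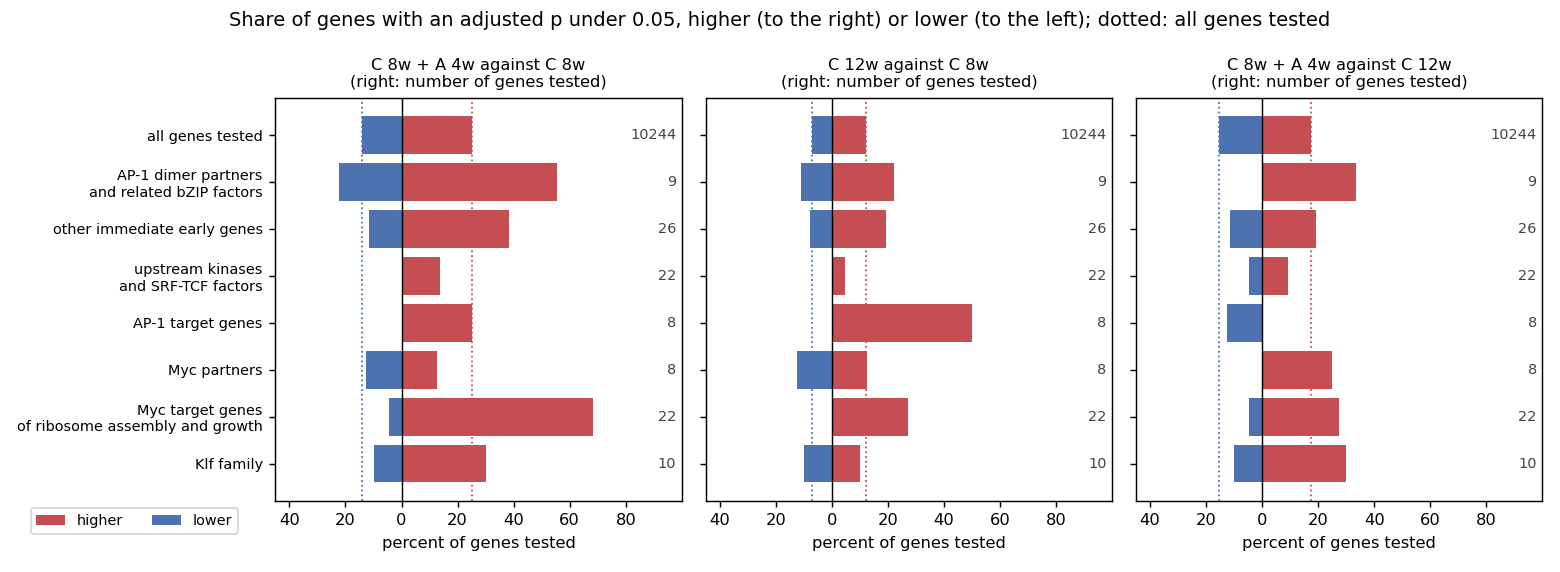
Percent of the tested genes of each list (vertical axis) called higher (red, to the right) or lower (blue, to the left) in the 3 comparisons (panels), with the number of genes tested at the right edge and all genes tested as dotted lines. In C 8w + A 4w against C 8w, 15 of 22 Myc targets are called higher, and 3 of 22 upstream kinases and SRF or TCF factors.

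Markers of other cell types moved with the later groups in part. The 5 bile duct markers summed to 1.35 to 3.58 FPKM in C 8w, 10.3 and 29.6 in the C 12w tumors and 17.3 to 29.9 in C 8w + A 4w. Of the 4 tested, 3 were called higher for C 12w (75%, against 12.2% of all genes) and 2 for C 8w + A 4w (50%, against 25.3%), all of them under 1 FPKM in every C 8w sample, so that they passed the floor only through the later groups, and the defining keratins Krt7 and Krt19 were at no more than 1.17 and 2.22 FPKM. The count for C 12w was 0, 1 and 0 without C 8w replicate 1, 2 or 3, and that for C 8w + A 4w was 4 without C 12w replicate 2 or 3. The 7 stellate cell and fibroblast markers summed to 16.2 to 19.5 FPKM in C 8w, 25.0 and 44.6 in the C 12w tumors and 14.2 to 29.7 in C 8w + A 4w. Of 6 tested, only Col3a1, a fibrillar collagen, was called against C 8w, higher for C 12w and lower for C 8w + A 4w (16.7% each, against 12.2% of all genes higher and 14.1% lower). The former was lost without C 8w replicate 1 or 2 or C 12w replicate 3, and the latter without any one C 8w sample or C 8w + A 4w replicate 1 or 3. The 5 endothelial markers summed to 23.6 to 29.0, 19.7 to 20.2 and 15.6 to 28.0 FPKM in the same order. Against C 8w, Kdr and Stab2 were called lower in both later groups (40%, against 6.98% of all genes for C 12w and 14.1% for C 8w + A 4w), and Lyve1 higher for C 8w + A 4w (20%, against 25.3%). Kdr was lost for C 12w without any one C 8w sample or C 12w replicate 3, and Lyve1 without C 8w replicate 1 or C 8w + A 4w replicate 3. The 4 neutrophil markers summed to 3.40 to 14.3, 4.18 to 12.8 and 8.05 to 10.3 FPKM (2 tested, 0 called by limma and 0 with an unadjusted p under 0.05), and the 5 lymphocyte markers, none of which passed the floor, to no more than 2.27 FPKM in any sample. The 7 hepatocyte markers summed to 9345 to 12031, 8784 to 14029 and 22828 to 28733 FPKM, the last group alone having Alb above 0. Of 6 tested, Apoa1 was called higher and Cps1 lower for C 8w + A 4w against C 8w (16.7% each, against 25.3% and 14.1% of all genes). Apoa1 was lost without C 8w replicate 2, and Cps1 without C 8w replicate 1 or 2 or C 8w + A 4w replicate 1 or 2. The median of the 6 was -0.93, and 5 of them had an unadjusted p under 0.05, among them Ttr, Pck1 and Tat at -0.77, -1.26 and -1.26 on the log2 scale with limma adjusted p of 0.0526, 0.0608 and 0.0736. Without C 12w replicate 2 or 3, 4 of the 6 were called lower. In C 8w + A 4w against C 12w, Cps1 and Tat were called lower (-1.25 and -1.72, limma adjusted p = 0.0244 and 0.0440). These are 33.3% of the hepatocyte markers tested, against 15.4% of all genes. Cps1 was lost there without C 8w + A 4w replicate 1 or 2. Col3a1 was called lower (-2.69, limma adjusted p = 0.00136), and Lrat and Cldn4 higher (1.32 and 1.84, limma adjusted p = 0.00692 and 0.00651). No other listed cell marker was called there. The part of these cells in the levels of the AP-1 genes was not tested.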

How the data were processed

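RNA of 8 Fah-/- mice was sequenced from libraries that the labels name as TruSeq, a kit that does not mark strand. The same text of the labels speaks of retinas, so the kit is uncertain. The authors deposited FPKM values for 22504 Ensembl genes (22314 with a symbol) in one table with 0 columns of other samples. The labels' processing notes name Bowtie 0.12.2 and mm8 without a role, and the quantifier and annotation are not given in the sources used here. Whole reads could not be recovered from the FPKM steps, so depth and counting error are unknown.

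Groups were taken from the treatment labels. Genes reaching an FPKM of 1 in 4 or more of the 8 samples were compared as log2(FPKM + 1) with limma 3.58.1 in R 4.3.3 (lmFit and eBayes with a trend, 3 groups in one fit, two-sided, Benjamini-Hochberg, threshold 0.05). P-values measure the spread between these samples. The 10 genes and all lists were chosen with earlier results of these data known. Named were the 3 genes nearest to Klf6, 3 known faults of the table and, of each list, genes from the 3 highest and 3 lowest fold changes among called genes whose groups did not overlap. Srf, Krt7, Krt19 and Hnf4a were named as defining genes.

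Shared sequence is the percent of 50-base windows of GENCODE M21 transcripts found in another gene. In 20 simulated data sets of 10244 genes with 200 changed, modelled on C 8w + A 4w against C 8w, 76.2% of changes of log2 1 and 96.0% of log2 2 were called, and 4.98% of calls were false. The lists covered AP-1 partners, other immediate early genes, upstream kinases, AP-1 and Myc targets, Myc partners, the Klf and Egr families and markers of hepatocytes, macrophages, stellate cells, bile duct, endothelium, lymphocytes, neutrophils and retina. Alternatives used a pseudocount of 0.1, lower, higher or no floors, 3 other scalings, eBayes without a trend, only 2 groups, genes with at most 2% shared sequence, each sample left out, and a replicate block. Some list genes are not reported here.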

Additional observations from a re-analysis of the deposited data

How the results depend on the processing

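The depth is unknown, n is 3, 2 and 3, and leaving out a C 12w sample leaves 1 tumor, which is then assumed to vary like the other groups. Of the tested log2 fold changes of the 9 genes that passed the floor, 396 values under alternatives kept direction and side of the threshold, 39 were no longer past it, 9 were newly past it and 4 turned sign, all 4 between the later groups. With single samples left out, the difference between the later groups ranged from -0.41 to 0.022 for Klf6 and from -0.18 to 0.10 for Myc. The 4 were Klf6 at 0.022 and Myc at 0.10 without C 12w replicate 3, and Myc at 0.05 and 0.10 without C 8w + A 4w replicate 2 or 3.

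In the counts of the 10 genes given here, Fosb was not tested, and Klf6 was tested only between the later groups. Counts of all genes called were 4034 (C 8w + A 4w against C 8w), 1962 (C 12w against C 8w) and 3356 (C 8w + A 4w against C 12w). With single samples left out they ranged from 2469 to 5189, from 677 to 3702 and from 2494 to 4214, and of the 10 genes from 4 to 7, from 3 to 6 (3 without C 8w replicate 1 or 2) and from 2 to 3. The count for C 12w against C 8w was 677, 941 and 720 without C 8w replicate 1, 2 or 3 and 3702 without C 12w replicate 2, and the count for C 8w + A 4w against C 8w was 2469 without C 8w replicate 1. With only the 2 groups compared, C 8w + A 4w against C 12w gave 1996 genes and 1 of the 10. Restricting the test to 6318 genes that share at most 2% of their sequence, 2194, 1241 and 1767 genes were called, and 2 of 4, 2 of 4 and 1 of 5 of the 10 genes tested, because the Jun genes and Fosl1 left the test.

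The replicate numbers 2 and 3 occur in both C 8w and C 12w, but belong to different mice. The difference between numbers 2 and 3 in C 12w correlated with that in C 8w at -0.189 across 10244 genes. A replicate block on these 4 samples called 252 genes and 2 of the 10, with Klf6 and Fosb not tested. With the numbers crossed, an alternative chosen after seeing the data, it called 16 genes and 1 of the 10. Both fits have fewer samples.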

Other observations

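The 2 tumors differed from each other in several genes of these pathways, all named after their values were seen and given without a test. Replicate 2 had the higher FPKM of Jun (1.36 times), Junb (1.48), Jund (1.56) and Fosl1 (2.90), and replicate 3 that of Fos (0.614 for replicate 2 over 3), Fosl2 (0.683), Klf6 (0.731) and Myc (0.844), while Egr1 was nearly equal (1.02). Atf3 was 35.7 and 8.91 FPKM in replicates 2 and 3, and Btg2, an antiproliferative immediate early gene, was 41.6 and 12.4 FPKM. The opposite held for Ccn2, a matrix protein and YAP target (1.83 and 25.9 FPKM), Dusp1, a MAP kinase phosphatase (13.5 and 52.3 FPKM), and Spp1, which encodes osteopontin (22.2 and 311 FPKM). Replicate 3 also had the higher sums of bile duct markers (29.6 against 10.3 FPKM) and of stellate cell and fibroblast markers (44.6 against 25.0 FPKM).

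Some low genes of the lists did not reach the floor in 4 samples and so were not tested, although they stood out in the tumors. Ccl2, a chemokine for monocytes and an AP-1 target, was 6.29 and 8.14 FPKM in C 12w and no more than 0.661 FPKM in any other sample. Nr4a1, an immediate early nuclear receptor, was 2.41 and 1.36 FPKM in C 12w and at most 0.909 FPKM elsewhere. Mxd3, a Max partner of dividing cells, was 1.37 and 3.07 FPKM in C 12w and at most 0.313 FPKM elsewhere. These genes were picked for that pattern.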
